A study of Mus musculus with 6 samples.

Results

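Activated MG were the 104 cells that the authors' cell table names microglia and, among these, Activated MG, out of 416 microglia and 658 cells in all. They came from the subventricular zone (SVZ), the stem cell niche lining the lateral ventricle, of adult Nestin-CreERT2:R26-yfp mice of both sexes. In these mice tamoxifen, given to every group, switches on YFP through a Cre that the Nestin promoter drives in neural stem/precursor cells (NSPCs) and that leaves microglia unmarked. Single cells were profiled in uninjured mice without photothrombosis, 1 day after photothrombosis (PT D1) and 7 days after it (PT D7), 2 libraries per condition. Photothrombosis (PT) closes cortical vessels by lighting the injected dye Rose Bengal through the skull, and the SVZ taken lay on the side of this lesion, at a distance from it. The sort took microglia by CD11b+ CD45low and NSPCs by YFP+, and no source used here says which mice stand behind a library. A p-value below therefore measures the spread between libraries, which may be technical. The labels do not say which cells are PT D7 library 1 and which library 2, and the numbers used for these are assumed from the cell names. The libraries held 480478 and 1020667 UMIs (unique molecular identifiers, each counting 1 captured transcript) in uninjured mice. Those of PT D1 held 546030 and 808811 UMIs, and those of PT D7 413299 and 721368.

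Microglia are the resident macrophages of the brain. In the healthy brain they are kept in a surveying state marked by purinergic, fractalkine and TGF-beta dependent genes such as P2ry12, Cx3cr1 and Tmem119. Tissue damage releases nucleotides, cytokines and other danger signals that act through Toll-like receptors, the IL-6 receptor and STAT3, and TNF and NF-κB, and microglia that sense them turn down the surveying genes and turn on receptors, cytokines and stress genes. A further state, disease-associated microglia, is known for lipid and lysosome genes such as Apoe, Lpl and Clec7a.

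All Activated MG came from PT D1. They made up 90.1% of the microglia of PT D1 library 1 (64 of 71 cells, 95% exact binomial interval 80.7 to 95.9%) and 52.6% of those of library 2 (40 of 76 cells, 40.8 to 64.2%). The intervals of the 2 libraries do not overlap. None was found among 71 and 84 microglia of the uninjured libraries, which allows shares of up to (3 cells of the total) 4.23 and 3.57%, or among 54 and 60 microglia at PT D7, which allows up to 5.56 and 5.00%. These intervals and limits cover counting error only, and 2 libraries against 2 cannot give a permutation test that reaches a p of 0.05. Subtype and day were thus nearly the same thing here: only 1 Homeostatic MG cell came from PT D1, so a comparison of the subtypes is also a comparison of PT D1 with other days, and the 2 cannot be told apart.

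**Figure D1:**
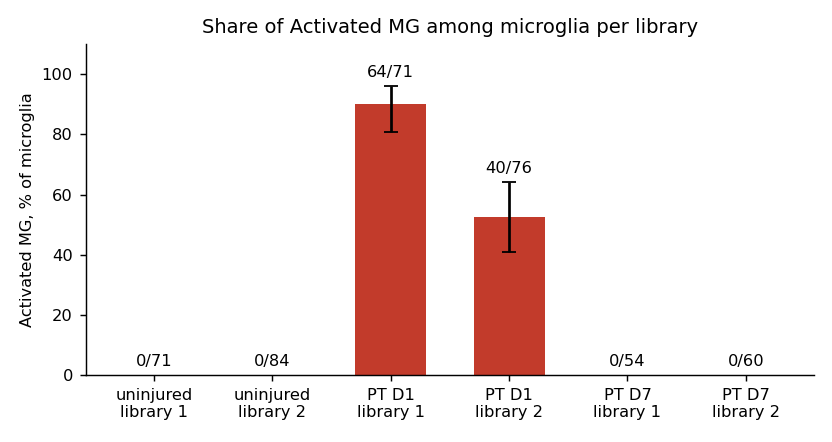
Share of Activated MG among all microglia (y axis, percent) in each of the 6 libraries (x axis). Bars are shares, lines at the PT D1 libraries are 95% exact binomial intervals and the labels give cells of this subtype over all microglia; the bars stand at 90.1 and 52.6% in the PT D1 libraries and at 0 in the other libraries.

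Depth per cell and mitochondrial share were close to those of the Homeostatic MG. Activated MG held 324998 UMIs in PT D1 library 1 and 224246 in library 2, with medians of 4681 and 4883.5 UMIs per cell (3201.5 to 5447.5 in the Homeostatic MG sums, 6250.5 and 6856 in those of Disease-associated MG) and a median mitochondrial share of 6.92 and 7.45%. Homeostatic MG were summed in 4 libraries, 279478 and 370532 UMIs from 54 and 70 cells of uninjured mice and 62454 and 122840 UMIs from 18 and 32 cells at PT D7, with mitochondrial medians of 6.71 to 8.86%. Disease-associated MG were summed in the PT D7 libraries only, 108075 and 93610 UMIs from 16 and 13 cells. With every cell thinned to 1000 UMIs, an Activated MG cell showed a median of 448.5 and 444.0 genes in the 2 libraries, below the 500.5 to 535.0 of the Homeostatic MG sums and the 495.0 and 460.0 of Disease-associated MG. A large part of the microglial UMIs lay in 1 gene model without a known function, Gm10800, singled out after its values were seen: 30.9 and 34.5% in Activated MG, 23.3 to 27.0% in Homeostatic MG and 29.6 and 28.1% in Disease-associated MG, against 10.6 to 16.9% in NSPCs. All gene models named Gm and a number held 41.6 and 45.9% of the UMIs of Activated MG and 32.8 to 36.7% of those of Homeostatic MG. These UMIs enter the CPM totals used below and may be a counting artefact, which was not checked in the reads. The part of the gene models in the lower number of genes per 1000 UMIs was not tested. Levels below are CPM, a gene's UMIs divided by the total of the sum and brought to one common total for all sums, scaled by TMM, which corrects for a few genes taking much of a library. A gene is called higher or lower where its library sums do not overlap between the subtypes and its mean log2 CPM differs by at least 2-fold. The authors drew the subtypes from these same genes, so the subtype values are a description without p-values, and ± is the standard error over library sums.

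The cells carried the marker genes of their label, which follows in part from how the authors grouped them, and few of other cell types. The 6 markers of Activated MG were seen at a median of 5 per cell, 98 of the 104 cells held at least 3 of them and no cell lacked all 6, against 30 of 175 Homeostatic MG cells with at least 3. At 1000 UMIs per cell 35 of 104 cells (33.7%) still held at least 3, against 2 of 175. The 10 microglial identity genes all held UMIs and summed to 8150 and 7062 CPM, against 15102 to 17447 in Homeostatic MG, and most of them were lower, as described below. Among them Csf1r, the receptor for the survival factor CSF1, stood at 2393 and 2199.9 CPM, below every Homeostatic MG sum but within 2-fold (log2 difference −0.39).

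Genes of blood cells were rare in Activated MG. The 9 monocyte markers summed to 35.1 and 93.5 CPM, with Fn1 the most abundant at 16.0 and 39.4 and Ly6c2 and Chil3 at 0 in both sums. Ccr2 was at 0 in library 1 and present in library 2, where 5 of the 9 markers held 19 UMIs together. In Homeostatic MG the same list summed to 15.4 to 42.3 CPM, a range that the Activated MG sum of library 2 exceeded. In Disease-associated MG it summed to 70.9 and 57.3 CPM. The 9 neutrophil markers summed to 182 and 207 CPM against 212 to 298 in Homeostatic MG, led in every sum by the receptor gene Csf3r, and Ly6g, Retnlg and Camp were at 0. Of 8 border macrophage markers Cd163, Lyve1, Ms4a7 and Cd209f were at 0 in both sums and Cbr2, which Homeostatic MG hold too, gave 150.2 of 176 and 172 of 182 CPM. The 8 lymphocyte markers summed to 16.0 and 24.6 CPM.

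Choroid plexus genes, foreign to microglia, differed between the groups. The 5 choroid plexus markers, led by the secreted carrier Ttr, summed to 569 and 974 CPM in Activated MG, to 12025 and 4003 in uninjured Homeostatic MG, to 42.3 and 92.5 in Homeostatic MG at PT D7 and to 1499.5 and 492 in Disease-associated MG. In Activated MG 1 cell held 81.7% of the Ttr UMIs of library 1 and 1 cell 74.1% of those of library 2. Oligodendrocyte markers summed to 447 and 148 CPM in Activated MG and 437 to 1681 in Homeostatic MG. The part of these levels in the results below was not tested.

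Of 2762 genes compared, 185 were higher in Activated MG than in Homeostatic MG (6.7% of the genes) and 182 lower (6.59%). Without TMM scaling, which moved the median log2 difference of all genes from 0.02 to −0.16, the split was 132 higher and 280 lower. Without the Gm gene models in totals or tests it was 192 and 164. The 367 calls became 645 and 679 without PT D7 library 1 or 2, 57 with at least 10 UMIs in every sum and 73 with thinned cells. The number of genes compared moved with them, to 4992, 4949, 520 and 501 in the same order. The 2 Activated MG sums were close to each other: their median absolute log2 difference was 0.319, and 147 genes (5.32%) lay at least 2-fold apart, among them 5 of the 185 and 18 of the 182. The same rule applied to Homeostatic MG of PT D7 against uninjured mice, 2 sums against 2, called 37 of 2618 genes higher (1.41%) and 99 lower (3.78%), together 5.19%. Of the called genes 6 of the higher and 7 of the lower were gene models without a name or pseudogenes.

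**Figure D2:**
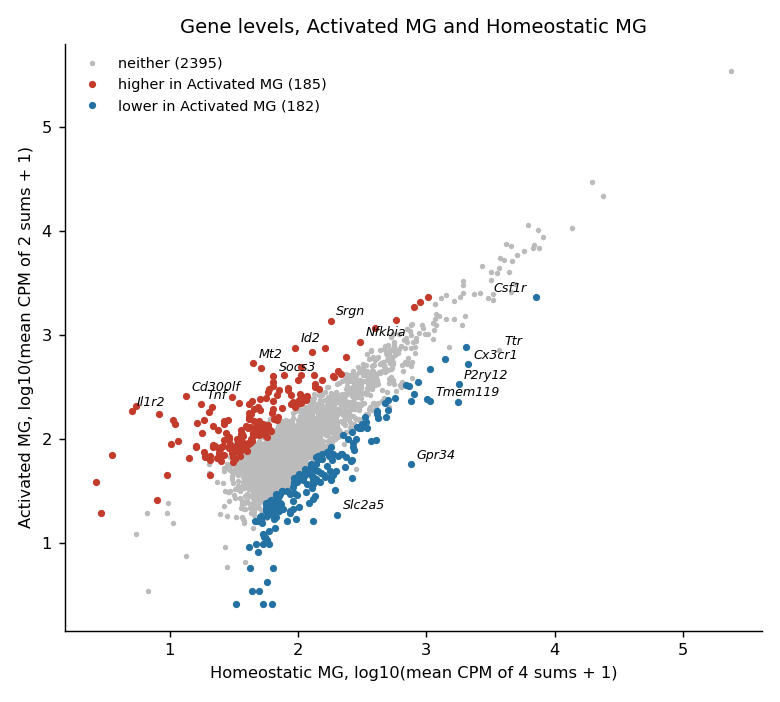
Level of each of 2762 genes in Homeostatic MG (x axis, log10 of the mean CPM of 4 sums plus 1) and in Activated MG (y axis, log10 of the mean CPM of 2 sums plus 1). Each point is a gene, with 185 higher genes in red, 182 lower genes in blue and the others in grey; Cd300lf, Il1r2, Mt2 and Tnf lie far above the main cloud and Gpr34, Slc2a5 and P2ry12 far below it.

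The markers that define Activated MG were among the most distinct genes. Cd300lf, an inhibitory receptor for phosphatidylserine on dying cells and for ceramide, lies on chromosome 11 from 115007040 to 115024818 (GRCm39, minus strand). It stood at 291 and 226 CPM in the 2 Activated MG sums, 10.1 and 10.3 in uninjured Homeostatic MG, 14.1 and 15.4 in Homeostatic MG at PT D7 and 20.3 and 22.9 in Disease-associated MG. Both Activated MG sums lay far above every other sum, and the log2 difference from Homeostatic MG was 3.57 ± 0.19 (11.9-fold). A Cd300lf UMI was seen in 71 of 104 Activated MG cells (68.3%, median 4751 UMIs per cell), 10 of 175 Homeostatic MG cells (5.71%, median 4759) and 7 of 222 NSPCs (3.15%, median 6449), which should lack this myeloid gene.

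Il1r2 (chromosome 1, 40113239 to 40164391, plus strand) encodes the decoy receptor that binds IL-1 without signalling. It stood at 188 and 182 CPM in Activated MG, 3.35 and 12.8 in uninjured Homeostatic MG and 10.1 and 0 in Disease-associated MG, and no UMI was found in Homeostatic MG at PT D7. The 2 Activated MG sums were nearly equal, and outside them the gene rested on 1 and 5 UMIs in the uninjured sums and 1 in Disease-associated MG. Within Activated MG it was uneven: 33 of 104 cells (31.7%) held a UMI, against 6 of 175 Homeostatic MG cells (3.43%) and 2 of 222 NSPCs (0.901%).

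Srgn (chromosome 10, 62329029 to 62363238, minus strand), the core protein of the granule proteoglycan serglycin, stood at 1677 and 1073 CPM in Activated MG, 138 and 244 in uninjured Homeostatic MG, 141 and 193 at PT D7 and 193 and 458 in Disease-associated MG. Id2 (chromosome 12, 25143798 to 25147282, minus strand), which blocks E-protein transcription factors, stood at 856 and 659 CPM against 77.1 and 128, 56.4 and 116 and 243 and 126 in the same order. For both genes the lower Activated MG sum, that of library 2, was still above every other sum. The log2 differences from Homeostatic MG were 2.88 ± 0.37 and 2.93 ± 0.31 (7.34-fold and 7.60-fold).

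Socs3 (chromosome 11, 117856905 to 117860898, minus strand), the feedback inhibitor of IL-6 receptor signalling, stood at 358 and 443 CPM in Activated MG, 47.0 and 51.3 in uninjured Homeostatic MG, 84.6 and 69.4 at PT D7 and 0 and 34.4 in Disease-associated MG, a log2 difference from Homeostatic MG of 2.51 ± 0.23. Tlr7 (chromosome X, 166086758 to 166113605, minus strand), the endosomal sensor of single-stranded RNA, stood at 476 and 502 CPM against 148 and 146, 42.3 and 84.8 and 91.2 and 91.6, a log2 difference of 2.25 ± 0.38. Of the 4 markers compared between the days within Homeostatic MG, Tlr7 was the 1 called, lower at PT D7 than in uninjured mice. None of the 6 markers rested on 1 cell: the cell with most UMIs held at most 27.0% of a marker's UMIs in a library, for Il1r2 in library 2.

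**Figure D3:**
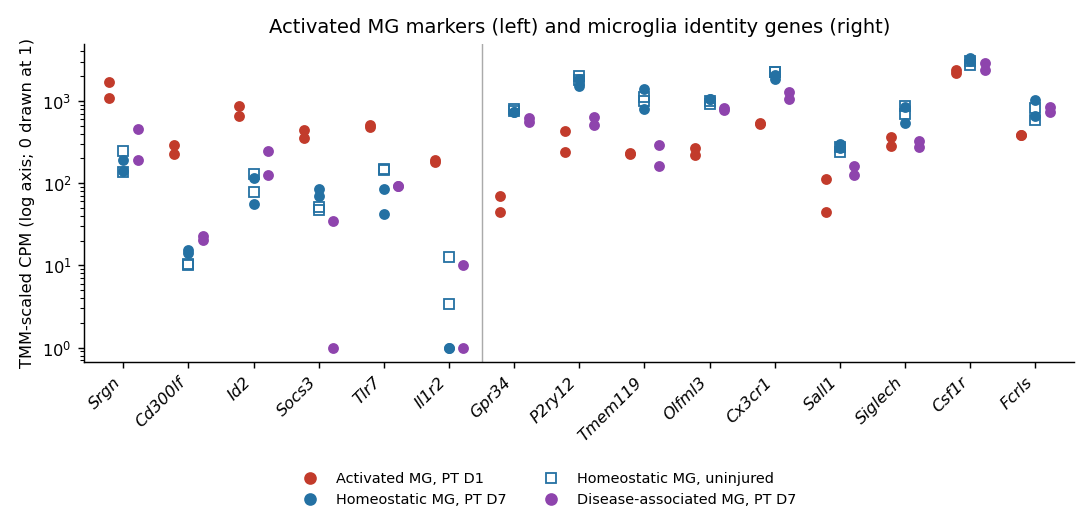
Levels of the 6 Activated MG markers (left of the line) and 9 microglial identity genes (right of the line) in each library sum, as TMM-scaled CPM on a log axis with 0 drawn at 1. Red points are the 2 Activated MG sums, open blue squares and blue points the uninjured and PT D7 Homeostatic MG sums and purple points the Disease-associated MG sums; the red points lie above all others for every marker and below the blue ones for every identity gene shown.

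Of 10 microglial identity genes, all compared, 7 were lower in Activated MG than in Homeostatic MG and none higher, with a median log2 difference of −1.87 against 0.02 over all genes. Gpr34, a lysophosphatidylserine receptor, had the largest difference: 44.7 and 68.9 CPM in Activated MG against 805 and 749 in uninjured Homeostatic MG and 733 and 732 at PT D7, a log2 difference of −3.54 ± 0.27. The purinergic receptor P2ry12, through which microglial processes follow ATP and ADP, stood at 431 and 241 CPM against 1784 and 2022 and 1819 and 1519 (−2.42 ± 0.42). Its level in Activated MG library 2 was lower than in library 1, and both were below every Homeostatic MG sum. Tmem119, a microglial surface protein, differed by −2.15 ± 0.17, the fractalkine receptor Cx3cr1 by −1.97 ± 0.06 and the transcription factor Sall1 by −1.78 ± 0.59. The lectin Siglech differed by −1.14 ± 0.25. Olfml3, a secreted glycoprotein, stood at 268 and 221 CPM against 919 to 1064. Csf1r and Fcrls were not called, with log2 differences of −0.39 and −0.96.

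Purinergic receptors went both ways. Of 13 purinergic and adenosine receptor genes 8 were compared, of which Gpr34, P2ry12 and P2ry13 were lower and the adenosine receptor Adora3 higher, at 147 and 88.6 CPM against 7.71 to 63.7 in Homeostatic MG. P2ry13, an ADP receptor, stood at 249 and 295 CPM against 694 to 1058. Adora3 falls below 2-fold without PT D7 library 2 (log2 difference 0.95). Of 18 genes of TGF-beta signalling and microglial transcription factors 17 were compared: Sall1 and Mef2c were lower and Runx1 higher, a share near that of all genes, with a list median of −0.13. Mef2c (185 and 103 against 285 to 366 CPM) falls below 2-fold when PT D1 library 2 is left out (−0.80) and with thinned cells (−0.57), P2ry13 with thinned cells (−0.88), and Runx1 without PT D7 library 1 (0.94). Against Homeostatic MG of the uninjured libraries alone neither Runx1 (0.76) nor Adora3 (0.90) is called.

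Outside the lists, the largest decreases among genes of at least 100 CPM were in Slc2a5, the fructose transporter of microglia, at 16.0 and 19.7 CPM in Activated MG against 162 to 239.8 in Homeostatic MG, in Hpgd, which inactivates prostaglandins, at 47.9 and 34.5 against 218 to 324, and in the collagen gene Col27a1 at 28.8 and 34.5 against 127 to 269.8. None of these sums overlapped. Ighm, the immunoglobulin heavy chain mu gene, was lower too (−2.42 ± 0.17), as was Lars2, a mitochondrial leucyl-tRNA synthetase (−2.39 ± 0.72), whose Homeostatic MG sums ran from 479.5 to 4248 CPM. With cells of at most 10% mitochondrial UMIs the Lars2 difference was −1.14 and the gene is not called.

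Several receptors for danger signals were higher in Activated MG. Of 18 Toll-like receptor and co-receptor genes 7 were compared and 4 were higher, with a median log2 difference of 1.34: Tlr7, Tlr2, the ribosomal RNA sensor Tlr13 and the co-receptor Cd14. Tlr2, the receptor for bacterial lipoproteins, stood at 163 and 276 CPM in Activated MG against 35.9 to 43.6 in Homeostatic MG (2.15 ± 0.37), and Cd14 at 511 and 723 against 216 to 254 (1.34 ± 0.25). Of 15 complement genes 8 were compared, and both that were higher are anaphylatoxin receptors: C5ar1 at 256 and 251 CPM against 0 to 46.3 and C3ar1 at 460.1 and 369 against 70.5 to 161. C1qa, a subunit of the complement initiator C1q, stood at 1383 and 1511 CPM against 917 to 1452, within 2-fold. The scavenger receptor Msr1, which takes up modified lipoproteins, was the 1 higher gene of 5 compared out of 12, at 185 and 93.5 CPM against 0 to 28.2.

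Several genes of IL-6 receptor and TNF signalling were higher. Of 19 genes of the IL-6 family, STAT3 and C/EBP 10 were compared and 4 were higher, none lower, with a median of 0.82: Socs3, the transcription factors Stat3 (307 and 281 CPM against 47.0 to 89.8) and Cebpb (275 and 349 against 54.0 to 117), and the kinase Pim1 (102 and 197 against 16.8 to 69.4). Without the 1 cell of each library with most Pim1 UMIs, the Pim1 sums overlap Homeostatic MG. Of 19 genes of TNF and NF-κB signalling 8 were compared and 4 were higher, median 1.16. Nfkbia, the inhibitor that NF-κB itself induces, stood at 869 and 861 CPM against 183 to 392 (1.52 ± 0.23). The cytokine Tnf stood at 115 and 315 CPM against 7.71 to 30.8 (2.99 ± 0.73). In library 2 a single cell held 33 of its 64 UMIs, and without the top cell of each library the log2 difference was 2.42. Tnfaip3, an inhibitor of NF-κB, was at 63.9 and 133 CPM against 0 to 43.6. The adhesion molecule Icam1, 95.8 and 167 against 26.8 to 70.5, is not called without the top cells.

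To show the sequence near gene starts, promoters of genes of these pathways and of other named genes were searched. The search was for the letters that STAT factors and NF-κB are known to bind, on both strands of the 250 bases before each RefSeq start. These were TTCNNNGAA for STAT and, for κB, 3 G, 3 of any base, 2 T and 2 C in that order. Among 27025 genes with a promoter in RefSeq's mouse table (GRCm38.p6) TTCNNNGAA was found in 2197 (8.13%) and the κB pattern in 1434 (5.31%). Of 55 named genes looked up 46 had a promoter in that table, 45 of these matched the GRCm39 genome at 1 place, and 12 held a match, each to 1 of the 2 patterns. TTCNNNGAA was found in Icam1, Il1r2, Klf9 and Socs3, a share of the 45 close to that of all genes. The κB pattern was found in C3ar1, Cxcl2, Mcl1, Nfkbia, P2ry12, Sdc4, Tlr2 and Tnfaip3, a larger share than that of all genes. The 55 genes were chosen without a stated rule. They took in genes outside these pathways, such as Slc2a5, Hpgd and Clec7a, beside Nfkbia, which NF-κB itself induces. Neither share was tested. For a chosen set, neither can be read as how frequent a pattern is among genes of Activated MG. The windows below are from higher genes of Activated MG, 10 bases to either side, 5′ to 3′ along the gene, with the match in capitals. TTCNNNGAA reads the same on both strands, and the Nfkbia and P2ry12 matches are the κB pattern read on the opposite strand. The last window, of P2ry12, is from a lower gene. Coordinates are GRCm39, found by an exact match of the RefSeq sequence.
Socs3 (STAT, chr11:117860328-117860356, minus strand, 154 bases before the start): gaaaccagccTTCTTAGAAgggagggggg
Il1r2 (STAT, chr1:40125132-40125160, plus strand, 111 bases before the start): cgggtgctttTTCAAGGAActtccgacta
Klf9 (STAT, chr19:23118547-23118575, plus strand, 33 bases before the start): cgtgatgggaTTCTGCGAAattgttactg
Nfkbia (κB, chr12:55539442-55539471, minus strand, 29 bases before the start): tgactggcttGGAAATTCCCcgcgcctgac
Tlr2 (κB, chr3:83749069-83749098, minus strand, 173 bases before the start): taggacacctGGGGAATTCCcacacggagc
Sdc4 (κB, chr2:164285171-164285200, minus strand, 82 bases before the start): agctttcccgGGGGAATTCCgggcggtgcg
Cxcl2 (κB, chr5:91051651-91051680, plus strand, 97 bases before the start): cctgagctcaGGGAATTTCCctggtccccg
P2ry12 (κB, chr3:59170438-59170467, minus strand, 51 bases before the start): ctaacaagaaGGAAGTTCCCcagtgacaca
The Socs3, Il1r2, Klf9 and Sdc4 windows lie inside the annotated gene, over an exon of a transcript that starts upstream. The annotated Tlr2 gene starts 159 bases before the RefSeq start, so the end of the Tlr2 window overlaps it and the match lies before it. The Nfkbia, Cxcl2 and P2ry12 windows lie before the gene. Cxcl2 holds further κB matches, 1 of them overlapping the one shown on the opposite strand. A match is a run of letters and not a shown binding site, and the searched stretches of Srgn, Id2 and Cd300lf held neither pattern.

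Secreted signals were few and uneven between cells. Of 16 genes of the IL-1 family and inflammasome 5 were compared: Il1r2 and Il1a were higher, Il1a at 76.7 and 153 CPM against 23.1 to 69.4, where 1 cell held 37.5 and 48.4% of its UMIs in the libraries and the call is lost without these cells (0.44). Of 17 chemokines and chemokine receptors 8 were compared, 4 higher (Ccl3, Ccl4, Ccl12 and Cxcl2) and 3 lower, among them Ccl6 and Cx3cr1. The inflammatory chemokine Ccl3 stood at 252 and 339.6 CPM against 53.7 to 127, and the related Ccl4 at 67.1 and 236 against 23.1 to 30.8. Both stayed higher without their top cells. The neutrophil attractant Cxcl2 came to 275 and 133 CPM against 10.3 to 28.2, but 1 cell of library 1 held 82 of its 86 UMIs there, and 1 cell held 107 of 132 UMIs of the CCR2 ligand Ccl12. Without the top cells neither is called, with log2 differences of 0.84 and 0.69. Ccl6 (51.1 and 9.84 against 53.9 to 84.8) is not called without PT D1 library 2 (−0.42). Of 16 secreted growth factors 7 were compared and none was higher or lower.

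Metallothioneins were higher. Of 11 genes of metallothioneins and metal transport 6 were compared and 3 were higher, median 1.11. The metallothionein Mt2 (chromosome 8, 94898819 to 94900207, plus strand), which binds zinc and copper, stood at 348 and 733 CPM against 14.1 to 77.1 (3.42 ± 0.66, 10.7-fold) and Mt1 at 537 and 847 against 73.8 to 162 (2.37 ± 0.40). Library 2 was the higher of the Activated MG sums for both, and 1 cell held 26.8 and 22.1% of their UMIs there. Fth1, the heavy chain of the iron store ferritin, stood at 1978 and 2229 CPM against 677 to 1279.7. The cell cycle inhibitor Cdkn1a was the 1 higher gene of 5 cell cycle genes compared, at 307 and 408 CPM against 40.3 to 84.8, and of 5 apoptosis genes compared the survival factors Mcl1 (1.12 ± 0.15) and Bcl2l1 (1.55 ± 0.46) were higher. Of 12 hypoxia and glycolysis genes compared 2 were higher, Pfkfb3, which makes an activator of glycolysis, at 342 and 310.1 CPM against 40.3 to 98.7, and the oxygen-sensing factor Hif1a, whose call is lost without its top cells (0.83). Of 13 chaperone and unfolded protein response genes compared Atf4 was higher and Pdia6 lower (median −0.39), and of 12 oxidative burst genes Txnrd1 was higher. Both lists held a share of calls near that of all genes. Without TMM scaling Mcl1, Hif1a and Atf4 fall below 2-fold (0.92, 0.93 and 0.86). So do Atf4 without its top cells (0.98) and Pdia6 without PT D1 library 2 (−0.90).

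Genes that respond to tissue dissociation were measured beside the others. Of 19 immediate early and dissociation genes 14 were compared, 3 were higher and none lower, with a median log2 difference of 0.38: the phosphatase Dusp1 (227 and 236 CPM against 28.2 to 54.0), Klf6 (316 and 364 against 98.7 to 177) and Ier2 (73.5 and 93.5 against 0 to 30.8). Jun and Junb, members of the AP-1 factor, differed by −0.11 and 0.49 and were not called. Against Disease-associated MG 5 of the 14 were higher (Btg2, Dusp1, Hspa1a, Klf4 and Klf6, median 0.98), where 9.63% of all genes were higher. Klf6 is not called there without PT D7 library 2 (0.94) or without its top cells (0.96). Nor is it called without the 10 cells that a joint clustering put with another subtype (0.95). In the tests of all microglia described below, 3 of 15 rose at PT D1, against 2.72% of all genes. From PT D1 to PT D7 4 of 15 fell, against 2.1% of all genes. Ier2 and Klf6 did not pass at PT D1 without either uninjured library, nor Ier2 in DESeq2 (adjusted p = 0.194), without TMM scaling (0.080), without PT D1 library 2 (0.149) or without Development-associated MG (0.052), nor Klf6 at PT D7 without either PT D7 library. Their part in the other differences was not tested.

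Further genes with the largest increases had several functions. Lilr4b, a leukocyte receptor, may share UMIs with its near copy Lilrb4a and is uncertain for that reason. It stood at 192 and 226 CPM in Activated MG, 0 to 10.1 in Homeostatic MG and 122 and 229 in Disease-associated MG. Pik3ip1, an inhibitor of PI3 kinase, stood at 192 and 153 CPM against 0 to 18.0, the glucocorticoid-induced factor Klf9 at 169 and 138 against 0 to 16.8, the stress gene Ier3 at 454 and 507 against 30.8 to 70.5 and the heparan sulphate proteoglycan Sdc4 at 173 and 113 against 0 to 41.1. Lilr4b, Pik3ip1, Klf9 and Sdc4 each had no UMI in at least 1 Homeostatic MG sum, and Ier3 was present in all 4. Both Activated MG sums were above 100 CPM for each of these genes.

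Several lists held no call, where 13.3% of all genes were called in either direction, which is less than 1 gene for lists of this size. Of 20 interferon response and MHC class I genes 7 were compared and none was called, with a median of 0.30, and of 7 MHC class II genes 4 were compared and none was called. MHC class II differed between the Activated MG sums themselves: H2-Aa stood at 25.6 and 261 CPM and H2-Eb1 at 28.8 and 285. None of 7 cholesterol and lipid handling genes compared was called. Of 21 lysosome genes 20 were compared and 3 were higher: the cathepsins Ctsb and Ctsl and the membrane protein Cd63 (779.5 and 719 CPM against 127 to 205). Ctsb falls just below 2-fold without TMM scaling (0.99).

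**Figure D4:**
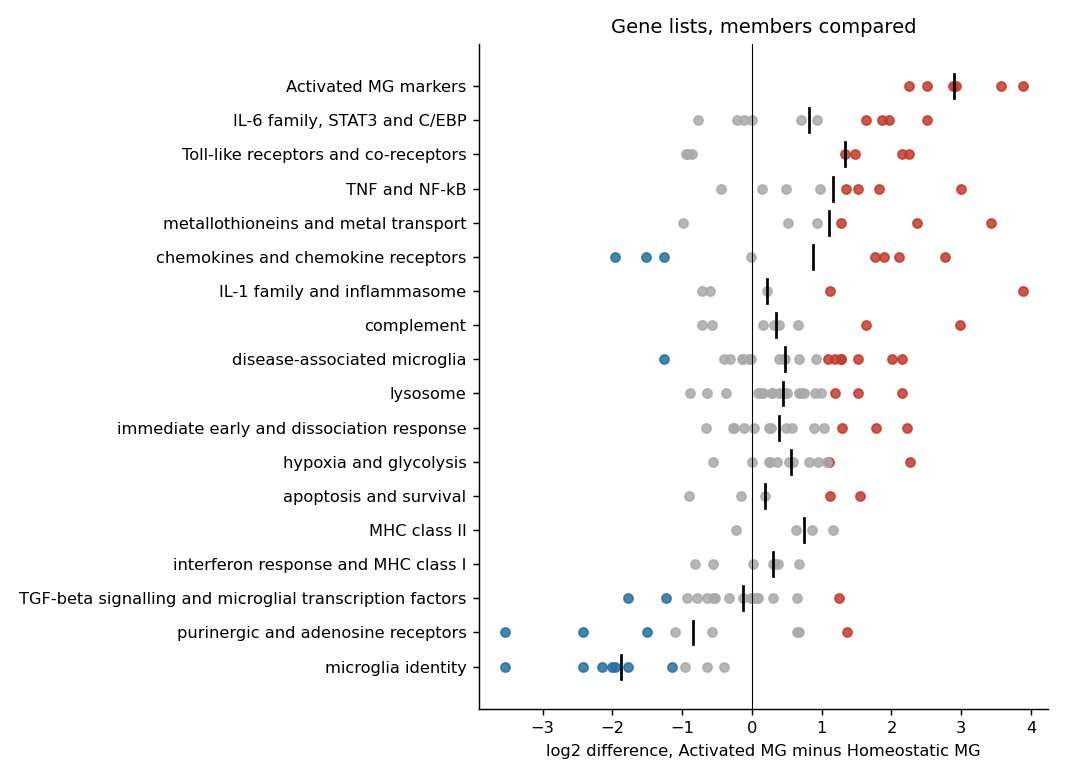
Log2 difference of Activated MG minus Homeostatic MG (x axis) for the compared members of 18 gene lists (y axis). Each point is a gene, red where higher, blue where lower and grey where not called, and the black bar is the list's median; the bars lie at 2.90 for the Activated MG markers, 1.34 for Toll-like receptors, −0.13 for TGF-beta signalling and −1.87 for microglia identity.

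Against Disease-associated MG of PT D7, 266 of the 2762 genes were higher in Activated MG (9.63%) and 210 lower (7.6%). These 476 calls became 1443 without PT D7 library 1 and 1299 without PT D7 library 2, 57 with at least 10 UMIs in every sum and 102 with thinned cells. In these settings the number of genes compared moved as given above for Homeostatic MG. All 6 markers were higher. The 23 disease-associated genes, 19 of them compared, divided the subtypes: against Homeostatic MG 7 were higher in Activated MG and 1 lower, and against Disease-associated MG none was higher and 11 were lower (median log2 difference −1.74). Apoe, the lipid carrier, stood at 1764 and 2525 CPM in Activated MG, 11175 and 14771 in Disease-associated MG and 1128 to 2968 in Homeostatic MG. Lpl, which frees fatty acids from lipoproteins, stood at 54.3 and 64.0 against 892 and 733 CPM, the fungal glucan receptor Clec7a at 0 and 4.92 against 111 and 195 and the receptor kinase Axl at 16.0 and 34.5 against 263 and 263. For Apoe, Lpl and Clec7a the Activated MG sums lay within the Homeostatic MG range, and Axl was the 1 of the 4 called higher than in Homeostatic MG, on 5 and 7 UMIs. That call is lost in 8 of the alternatives, among them without PT D1 library 2 (0.72), without TMM scaling (0.99) and without the top cells (0.73).

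Within the lysosome list 2 of 20 genes compared, among them Ctsd, were lower in Activated MG than in Disease-associated MG and none was higher, close to the 7.6% lower among all genes. The cathepsin Ctsd stood at 2409 and 2638 CPM against 5613 and 5851, and falls below 2-fold with cells thinned to 1000 UMIs (−0.97). Cd63, Ctsl and Fth1, higher than in Homeostatic MG, were not called between these subtypes. Cd63 stood at 779.5 and 719 CPM in Activated MG and 699 and 962 in Disease-associated MG, Ctsl at 1239.6 and 1088 and 1064 and 985, and Fth1 at 1978 and 2229 and 1651 and 2015. Ctsb, at 2364 and 2313 CPM, lay between Homeostatic MG (919 to 1171) and Disease-associated MG (3546 and 5301). Spp1, the secreted osteopontin, rested on 16 and 5 UMIs in Activated MG (51.1 and 24.6 CPM) and differed widely between the Disease-associated MG sums (1145 and 103). Without its top Activated MG cells Spp1 stayed higher than in Homeostatic MG (1.35). Its UMIs lay in 3 and 2 Activated MG cells. Leaving out Activated MG cells can hardly undo the lower call against Disease-associated MG, whose own top cells were kept.

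**Figure D5:**
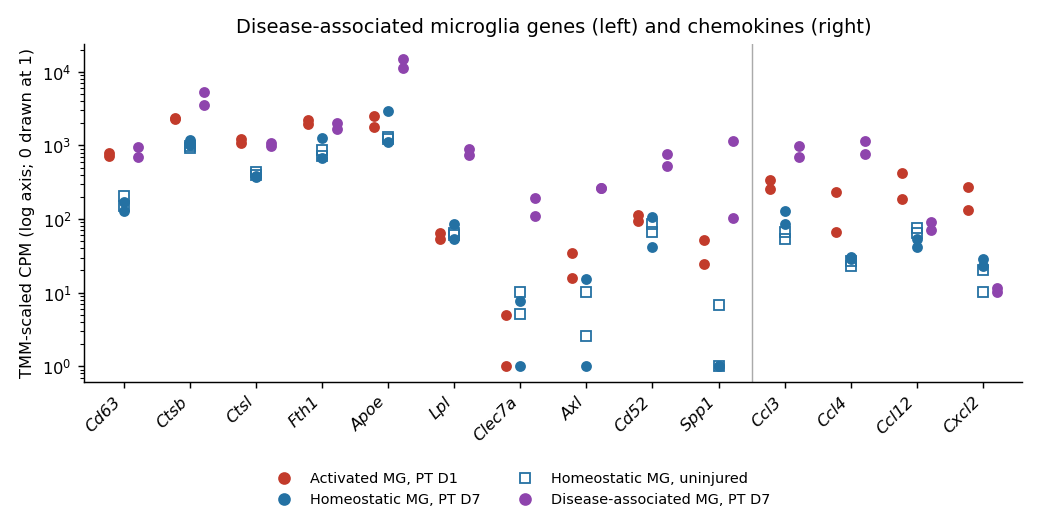
Levels of 10 disease-associated genes (left of the line) and 4 chemokines (right of the line) in each library sum, as TMM-scaled CPM on a log axis with 0 drawn at 1. Red points are Activated MG, open blue squares and blue points Homeostatic MG of uninjured mice and PT D7, and purple points Disease-associated MG; the red points lie level with the purple ones for Cd63, Ctsl and Fth1 and far below them for Apoe, Lpl, Clec7a, Axl, Ccl3 and Ccl4.

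Some genes found in Activated MG had no UMI in Disease-associated MG. Rnf169, which binds ubiquitin at DNA breaks, and Ddit4, a stress-induced inhibitor of mTORC1, were at 0 in both sums and stood at 335 and 226 and at 239.6 and 290.4 CPM in Activated MG. Pik3ip1 had none there either. Of the 10 IL-6 family genes compared 6 were higher than in Disease-associated MG: Cebpb, Jak1, Lifr, Pim1, Socs3 and Stat3, with Jak1 just under 2-fold without PT D7 library 2 (0.997). The chemokines divided: Ccl3 and Ccl4 were lower in Activated MG, at 252 and 339.6 against 973 and 687 CPM and at 67.1 and 236 against 1165 and 767, and Ccl12 and Cxcl2 higher. Ccl12 is not called without its top cells (0.26). With cells of at most 10% mitochondrial UMIs Ccl3 and Ccl4 are not called either (−0.35 and −0.51), nor Ccl3 with thinned cells (−0.50). Of 7 interferon and MHC class I genes compared 4 were lower, among them H2-D1 (313 and 345 against 790.3 and 824 CPM), Bst2 and Ifitm3. H2-D1 falls below 2-fold with thinned cells (−0.85) and with at least 10 UMIs in every sum (−0.96). Of 10 identity genes Cx3cr1, Gpr34 and Olfml3 were lower, with Cx3cr1 below 2-fold without PT D7 library 1 (−0.89), with thinned cells (−0.99) and with at most 10% mitochondrial UMIs (−0.85). P2ry12, Tmem119, Sall1 and Siglech were not called, with log2 differences of −0.80, 0.08, −0.91 and 0.10.

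The day after PT was tested over libraries, with all microglia of a library summed whatever their subtype. Activated MG were most of the PT D1 microglia, so this test is not independent of how they were named, and a change in the mix of cells and a change within cells cannot be told apart. By the quasi-likelihood test of edgeR, Benjamini-Hochberg adjusted over 4846 genes, 132 genes rose from uninjured to PT D1 (2.72%) and 144 fell (2.97%), together 5.7%. With the library number as a block the count of 276 became 639, and without TMM scaling the split was 89 and 175. All 6 markers rose. Cd300lf went from 14.2 and 12.5 CPM without injury to 289 and 221 at PT D1 (log2 fold change 4.23 ± 0.36, adjusted p = 0.000234) and Il1r2 from 2.83 and 10.4 to 179 and 141 (4.42 ± 0.49, adjusted p = 0.000653). All microglia at PT D1 stood above both uninjured libraries for each marker. Socs3 rose too (log2 fold change 2.89 ± 0.27, adjusted p = 0.000484), as did Id2 (2.82 ± 0.31, adjusted p = 0.000653). Srgn (2.71 ± 0.38, adjusted p = 0.00200) and Tlr7 (1.65 ± 0.26, adjusted p = 0.00434) rose with both uninjured libraries in the fit. Without uninjured library 1 the adjusted p of Srgn was 0.056 and that of Tlr7 0.10, and without uninjured library 2 that of Tlr7 was 0.12. The same 7 identity genes fell, led by Gpr34 from 801 and 679 to 51.6 and 70.4 CPM (−3.58 ± 0.29, adjusted p = 0.000234).

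Of 9 complement genes tested 2 rose, the receptors C5ar1 (2.73 ± 0.31, adjusted p = 0.000809) and C3ar1 (1.35 ± 0.26, adjusted p = 0.0153). Of 11 Toll-like receptor and co-receptor genes Tlr2, Tlr7 and Cd14 rose and Tlr3 fell. Of 11 genes of the IL-6 family, STAT3 and C/EBP 3 rose, Socs3, Stat3 (2.07 ± 0.32, adjusted p = 0.00402) and Cebpb, and of 12 of TNF and NF-κB 3 rose, Tnf, Nfkbia and Icam1, with none lower in either list. Of 9 genes of metallothioneins and metal transport tested 5 rose, Mt2 (3.71 ± 0.46, adjusted p = 0.00130), Mt1, Fth1, Hmox1 and Slc39a14, and none fell. Of 12 chemokines and receptors tested 5 rose (Ccl3, Ccl4, Ccl12, Cxcl2 and Cxcl10) and 2 fell, 1 of them Cx3cr1. For Cxcl2 1 cell held most of the UMIs in PT D1 library 1, as given above, and the test was not run without it. In the same libraries the choroid plexus gene Ttr fell by 3.74 on the log2 scale, from 10153 and 4049.5 to 605 and 461 CPM, and its part in the other changes was not tested. With 1 uninjured library left, which is then assumed to vary like the other groups, 45 or 54 genes passed in all, and without PT D1 library 1 538 did. Cd14, Cebpb, Nfkbia, Tlr2, C3ar1, Fth1, Ccl4, Ccl12, Icam1 and Sall1 did not pass when either uninjured library was left out, and Stat3, Tnf and Ccl3 did not without uninjured library 1. Icam1 and Cebpb did not pass in DESeq2 either (adjusted p = 0.255 and 0.068). Icam1 was also lost without TMM scaling (0.078), with only the 2 conditions (0.087), with cells of at least 2000 UMIs (0.060) and without PT D1 library 2 or either PT D7 library (0.053 to 0.107). Ccl4 was also lost without PT D1 library 2 (0.073) and Sall1 with only the 2 conditions (0.051).

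From PT D1 to PT D7, 82 of 4846 genes rose (1.69%) and 102 fell (2.1%), 184 in all (3.8%) and 462 with the library block. The count was 46 without PT D7 library 1, 77 without PT D7 library 2, 104 and 112 without uninjured library 1 or 2 and 418 without PT D1 library 1. All 6 markers fell. The log2 fold change was −6.10 ± 0.69, adjusted p = 0.00113 for Il1r2, −4.17 ± 0.39, adjusted p = 0.000432 for Cd300lf and −3.01 ± 0.29, adjusted p = 0.000498 for Socs3. It was −2.59 ± 0.32, adjusted p = 0.00128 for Id2, −2.49 ± 0.28, adjusted p = 0.00113 for Tlr7 and −2.40 ± 0.38, adjusted p = 0.00511 for Srgn. Srgn stood at 192 and 286 CPM in the PT D7 libraries, and its adjusted p without PT D7 library 1 was 0.096. Of 10 identity genes 7 rose, among them Gpr34 (3.48 ± 0.29, adjusted p = 0.000365) and P2ry12 (1.90 ± 0.31, adjusted p = 0.00655). P2ry12 had an adjusted p of 0.053 and Tmem119 one of 0.10 without PT D7 library 1. Sall1, another of the 7, lost its call in 9 of the alternatives, DESeq2 among them (0.062). Of 20 disease-associated genes tested 5 rose: Apoe (1.06 ± 0.25, adjusted p = 0.0418), Ccl6, Cd52, Clec7a and Lpl, with Ccl6 at 0.11 without PT D7 library 2 and Clec7a at an adjusted p of 0.070 to 0.30 without PT D1 library 2 or either PT D7 library. The 2 comparisons share the PT D1 libraries.

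PT D1 library 2 held a further group of microglia, 35 cells that the authors named Development-associated MG, set here against Activated MG of the same library. It is 1 library, without a test. These cells carried epithelial genes that were low in Activated MG: Elf3 stood at 455 CPM (not TMM-scaled, here and below) against 13.4 in Activated MG of the same library, Mal2 at 537 against 17.8 and Lad1 at 382 against 17.8. The markers were shared in part. Cd300lf stood at 204.9 CPM in Development-associated MG against 205.1 in Activated MG, Socs3 at 364 against 401, Id2 at 464 against 598, Srgn at 656 against 972, Il1r2 at 95.6 against 165 and Tlr7 at 255 against 455. The identity genes were low in both, Gpr34 at 68.3 against 62.4 CPM and P2ry12 at 223 against 219. Of the 185 higher genes 143 (77.3%) lay above all 4 Homeostatic MG sums in Development-associated MG too, against 574 of all 2762 genes (20.8%), and of the 182 lower genes 166 (91.2%) lay below all of them, against 1003 of all genes (36.3%). In the joint clustering of all cells by the authors, 10 of the 104 Activated MG cells sat with Development-associated MG, 8 of them from library 2. Without these 10 cells 165 genes were higher and 157 lower than in Homeostatic MG. The 185 and 182 genes were chosen in part on this library. PT D1 library 1 held 4 microglia that the authors named Unknown MG, with 21265 UMIs. There Srgn stood at 282 CPM (95% exact Poisson interval 104 to 614) against 1615 in Activated MG of that library, Id2 at 752 (430.1 to 1222) against 825 and Ier3 at 0 (up to 173) against 437. These intervals cover counting error only.

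NSPCs of the same libraries were not used to name the microglia and could be tested for the same genes. They numbered 19 and 52 cells at PT D1 and 16 and 59 in uninjured mice. Of 4907 genes tested 51 rose at PT D1 (1.04%) and 53 fell (1.08%), or 76 and 53 without TMM scaling. Leaving out PT D1 library 2 moved the balance of the calls towards lower. The 104 calls (2.12%) became 16 in DESeq2, 6 of them higher, 39 without uninjured library 2 and 229 and 166 without PT D7 library 1 or 2. Markers of the cell mix moved in the same test: 4 of 5 neuroblast markers fell (Dcx, Sox11, Stmn2 and Tubb3, list median −1.02), as did both choroid plexus markers tested, Ttr and Enpp2 (−5.10), and Gfap rose alone of 6 NSPC and astroglia markers. Of 11 immediate early and dissociation genes Egr1, Fos and Junb rose (median 1.33). Sox11, Tubb3 and Enpp2 did not pass in DESeq2 (adjusted p = 0.103, 0.085 and 0.053) or without uninjured library 2, and Junb not without PT D1 library 2 (0.16). Their part in the changes below was not tested. Of the 185 genes higher in Activated MG 88 could be tested in NSPCs, of which 13 rose (14.8%) and none fell. Of the 182 lower genes 90 could be tested, of which 5 fell (5.56%) and none rose. Among the 13 were the metallothioneins: Mt2 went from 374 and 629 CPM in uninjured NSPCs to 3251 and 4579 at PT D1 (2.91 ± 0.26, adjusted p = 1.00e-07) and Mt1 from 642 and 559 to 2282 and 3345 (2.25 ± 0.29, adjusted p = 6.20e-05). Both kept their call in every alternative run for this test. Cdkn1a went from 144 and 62.9 to 410.1 and 383 CPM (2.18 ± 0.34, adjusted p = 0.000969), with an adjusted p of 0.084 without uninjured library 2.

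Of the 6 markers of Activated MG, Srgn, Socs3 and Id2 could be tested in NSPCs and rose. Srgn went from 57.5 and 24.2 to 157 and 171 CPM (2.34 ± 0.44, adjusted p = 0.00404), Socs3 from 19.2 and 21.8 to 59.7 and 168 (2.54 ± 0.56, adjusted p = 0.0142) and Id2 from 67.1 and 159.7 to 268 and 353 (1.28 ± 0.33, adjusted p = 0.0424). Nfkbia rose as well (1.27 ± 0.34, adjusted p = 0.0475). Srgn was at an adjusted p of 0.13 without PT D1 library 2 and 0.27 without uninjured library 2, and Socs3 at 0.14 without uninjured library 2. Id2 and Nfkbia were at 0.34 and 0.35 in DESeq2, at 0.21 and 0.13 without PT D1 library 2 and at 0.18 and 0.13 without uninjured library 1. In the NSPCs of the PT D1 libraries Cd300lf had 1 and 5 UMIs, Tlr7 2 and 5 and Il1r2 0 and 2, too few to test.

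Microglial RNA in the NSPC wells was measured by the identity genes. The 10 identity genes summed to 223 and 281 CPM in NSPCs at PT D1 and to 465 and 448 in uninjured NSPCs, against 7723 and 5366 and 15960 and 16007 CPM in the microglia of those libraries. Relative to Csf1r, Srgn stood at 2.33 and 1.34 in NSPCs of the PT D1 libraries and at 0.678 and 0.506 in their microglia, and Mt2 at 48.4 and 35.8 against 0.142 and 0.426. Id2 stood at 4.00 and 2.76 against 0.372 and 0.330. The ratios in NSPCs rest on 9 and 38 Csf1r UMIs. These 3 genes, chosen because they rose in NSPCs, had higher ratios there than in microglia of the same library. This held in uninjured mice too, on 21 and 51 Csf1r UMIs in NSPCs. There Id2 stood at 0.333 and 1.29 against 0.0281 and 0.0462, and Mt2 at 1.86 and 5.10 against 0.0112 and 0.0180. Srgn stood at 0.286 and 0.196 against 0.0468 and 0.0909. Csf1r is a microglial gene, so a gene that NSPCs express themselves has a higher ratio there on any day. The source of the rise was not tested. At PT D1 the ratios of Il1r2 were lower in NSPCs, 0 and 0.0526 against 0.0736 and 0.0810. Those of Cd300lf were 0.111 and 0.132 against 0.118 and 0.127, and those of Tlr7 0.222 and 0.132 against 0.196 and 0.221.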

How the data were processed

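Whole-cell UMI tables were deposited for 6 mCEL-Seq2 libraries (plate-based single-cell RNA-seq, 192 wells each). The authors deposited raw UMI counts per gene and cell, 34203 rows, with a cell table giving cell types, microglia subtypes and a mitochondrial percent. Per the labels, the build was GRCm39 and demultiplexing used bcl2fastq 2.17.1.14. Aligner and annotation were not given in the sources used here. Sorting left out doublets by pulse width and the authors removed cells of very high or low counts, and no doublet caller was run here. At PT D7 the cell names do not give the library number plainly: both prefixes hold a 1 where the other conditions hold the library, and their last digit was assumed to be the number. Condition does not depend on this, but the pairing and block do. Of 180 well numbers 164 occurred in several libraries, and no cells had identical counts.

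UMIs were summed per library and subtype (at least 10 cells) or per library and class. Genes passing edgeR's filterByExpr were compared as TMM-scaled log2 CPM with a prior count of 2 (edgeR 4.0.16, R 4.3.3). Conditions were tested by edgeR's quasi-likelihood test, 3 conditions fitted together, Benjamini-Hochberg adjustment, threshold 0.05. Alternatives were DESeq2 1.42.0, no scaling, other filters on genes and cells, a replicate block and leaving out each library. Exact binomial intervals (Clopper-Pearson) were at 95%, and limits for a count of 0 used 3 cells. The scripts were tested on simulated data. Microglia of equal library number deviated together (correlations of 0.220, 0.193 and 0.262 between conditions), which meets the criterion set for a pairing. The tests were fitted without the block and again with it as an alternative. In NSPCs the correlations were 0.0950, −0.0581 and −0.0410.

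The members and lists were chosen with earlier results of these data known. Genes were named by rule: the 6 markers, per list the 3 highest in Activated MG and up to 4 called with the largest difference, and the 12 and 8 genes with the largest increases and decreases against Homeostatic MG, and 6 and 6 against Disease-associated MG, among genes of at least 100 CPM. Apoe, Bst2, Btg2, Cd52, Cxcl10, Dcx, Egr1, Fcrls, Fos, Gfap, Gm10800, Hmox1, Hspa1a, Ifitm3, Klf4, Lifr, Siglech, Slc39a14, Stmn2, Tlr3 and the other-cell markers at 0 fall outside it and were named after their values were seen. Some genes of the lists are counted but not reported here by name. Motifs were read from RefSeq promoter sequences.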

Additional observations from a re-analysis of the deposited data

Results flagged for a closer look

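In the 4 Homeostatic MG sums, 1 sum stood far from the others for 7 of 136 genes examined. How many chance would give was not tested. At PT D7 library 2 the highest were Cst7 at 7.71 CPM and H2-D1 at 486 CPM, and the lowest was Mef2c at 285 CPM. At PT D7 library 1 P2ry13 was highest at 1058 CPM and Ier2 lowest at 0 CPM. Slc1a3 was highest in uninjured library 2 at 290.0 CPM and Spp1 in uninjured library 1 at 6.71 CPM. Among the 20 cells that were neither microglia nor NSPCs, which no comparison used, Id2 stood at 961 CPM in PT D1 library 1 (41 UMIs in 5 cells), and Socs3 at 516 CPM there (22 UMIs) and at 515 CPM in PT D1 library 2 (12 UMIs in 3 cells). Id2 in PT D1 library 2 stood at 129 CPM (3 UMIs). The 4 such cells of uninjured library 2 held 0 UMIs of Socs3 and 2 of Id2.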

How the results depend on the processing

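No direction of a called or tested value reversed in the alternatives run. Activated MG against Homeostatic MG gave 367 genes, 57 (14 higher, 43 lower) with at least 10 UMIs in every sum, 73 with cells thinned to 1000 UMIs, and 264 to 679 with a library left out (645 and 679 without PT D7 replicate 1 or 2). Activated MG against Disease-associated MG gave 476, then 57 and 102, and 501 to 1443 (1443 and 1299 without PT D7 replicate 1 or 2). For the PT D1 test of microglia the 276 genes became 106 in DESeq2, 541 with no filter, 639 with the replicate block and 45 to 538 with a library left out (45 and 54 without uninjured replicate 1 or 2, 538 without PT D1 replicate 1). For PT D7 against PT D1 the 184 became 88, 422, 462 with the replicate block, 94 with only these 2 conditions, 281 without Development-associated MG (chosen after seeing the data) and 46 to 418 with a library left out (46 and 77 without PT D7 replicate 1 or 2, 104 and 112 without uninjured replicate 1 or 2, 418 without PT D1 replicate 1). The share of higher calls in this test fell from 44.6 to 34.7% without TMM scaling. For NSPCs the 104 became 16 in DESeq2, 88 with the replicate block and 39 to 229 with a library left out (39 without uninjured replicate 2, 229 and 166 without PT D7 replicate 1 or 2), and same-numbered NSPC libraries share only a number. Id2 and Nfkbia missed the threshold with that block (adjusted p = 0.065 and 0.082). The replicate block lost no named call in microglia. The share of Activated MG was 70.7% over both PT D1 libraries and 52.6 to 90.1% with a library left out. The causes were not tested.

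Of 73 named genes called against Homeostatic MG 63 kept the call without the Activated MG cell of each library with most UMIs of that gene, and 72 without the Gm gene models. A lower call can hardly be lost in the first setting, since it takes UMIs only from Activated MG. Both settings were chosen after seeing the data. Of 416 values with a library left out 399 kept their call, and of 366 in the PT D1 test 281 did. A comparison within the PT D1 libraries alone could not be run, since they held 1 Homeostatic MG cell. Counting error is largest for the PT D7 sums, the smallest of which held 62454 UMIs.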
